A study of Mus musculus with 20 samples.

Results

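Microglia, the resident macrophages of the brain, were compared between mThy1-α-synuclein mice and wild-type littermates for 10 genes of inflammatory mediators: the interleukin-1 (IL-1) genes Il1a, Il1b, Il1rn and Il1rap, the cytokine genes Tnf, Il6, Il10 and Tgfb1, and the prostaglandin synthase genes Ptgs1 and Ptgs2. They were chosen by symbol, with earlier results of these data known. All 10 were among the 24062 genes of the expression table and passed the filter on low values at both ages. RNA was sequenced from 20 male mice on the B6D2F1/J background, with 6 transgenic and 4 wild-type mice at 7 months and 5 of each at 10 months. The transgenic mice (HEM in the labels) carry human wild-type α-synuclein under the murine Thy-1 promoter, inserted on the X chromosome, and the wild-type mice (WT) lack the transgene. Each sample was the microglial fraction of the whole brain of a single mouse, taken with CD11b beads according to the study's methods and by IBA1 according to the labels.

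IL-1α and IL-1β, encoded by Il1a and Il1b, act on the same receptor, which signals once the accessory chain encoded by Il1rap has joined it. The antagonist encoded by Il1rn occupies that receptor without signalling, so ligand and antagonist compete. TNF and IL-6 are further inflammatory cytokines, whereas IL-10 and TGF-β1 restrain myeloid cells, and TGF-β1 maintains the identity of microglia. The enzymes COX-1 (Ptgs1) and COX-2 (Ptgs2) both make the precursor of the prostaglandins from arachidonic acid, COX-1 being made constitutively by microglia and COX-2 on stimulation.

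The bases before the transcription starts of the members that moved, and of the neighbor of Il1b, are shown so that the windows of the 3 genes that fell at 10 months can be read beside those of Il1a and Ptgs1. They are RefSeq sequences on GRCm38.p6, 250 bases long, 5′ to 3′ on the strand of the gene, and they end 1 base before the start. Capitals mark matches, on either strand, to the TATA box (TATAAA), the AP-1 motif (TGANTCA), the cyclic AMP response element (TGACG directly followed by TCA) or the NF-κB motif.
Il1b, chr2:129371140-129371389, minus strand: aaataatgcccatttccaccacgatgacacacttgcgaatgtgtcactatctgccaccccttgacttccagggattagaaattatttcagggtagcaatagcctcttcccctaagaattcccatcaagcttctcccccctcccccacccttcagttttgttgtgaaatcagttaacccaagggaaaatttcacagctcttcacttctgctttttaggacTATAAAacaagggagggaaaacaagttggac
Il1a, chr2:129309973-129310222, minus strand: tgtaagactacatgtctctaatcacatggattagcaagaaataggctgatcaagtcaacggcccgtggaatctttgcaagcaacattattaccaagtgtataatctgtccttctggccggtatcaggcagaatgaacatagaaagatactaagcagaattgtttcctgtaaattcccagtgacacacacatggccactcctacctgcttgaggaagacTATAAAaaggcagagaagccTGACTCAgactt
Il1rn, first of 3 annotated starts, chr2:24336610-24336859, plus strand: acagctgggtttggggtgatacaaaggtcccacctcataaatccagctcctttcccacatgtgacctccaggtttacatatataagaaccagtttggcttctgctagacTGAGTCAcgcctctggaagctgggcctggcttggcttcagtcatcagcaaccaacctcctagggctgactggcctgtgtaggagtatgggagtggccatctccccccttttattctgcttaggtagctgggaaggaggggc
Ptgs2, chr1:150099781-150100030, plus strand: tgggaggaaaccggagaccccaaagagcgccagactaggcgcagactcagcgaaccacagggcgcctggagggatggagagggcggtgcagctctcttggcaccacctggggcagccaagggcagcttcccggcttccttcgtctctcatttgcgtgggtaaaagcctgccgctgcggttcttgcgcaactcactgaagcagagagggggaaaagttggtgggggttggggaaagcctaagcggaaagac
Ptgs1, chr2:36230176-36230425, plus strand: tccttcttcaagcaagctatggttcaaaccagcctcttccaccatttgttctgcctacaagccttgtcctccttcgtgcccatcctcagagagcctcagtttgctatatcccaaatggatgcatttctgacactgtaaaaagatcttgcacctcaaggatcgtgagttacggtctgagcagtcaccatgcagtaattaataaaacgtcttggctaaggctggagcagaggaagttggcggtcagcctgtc
The Il1b window held a TATA box beginning 31 bases before the start, and the Il1a window held a TATA box at 32 bases and an AP-1 match at 12 bases. The printed Il1rn window held an AP-1 match at 141 bases. The windows of the other annotated Il1rn starts and of Il1rap, not printed, and those of Ptgs2 and Ptgs1 held none of these letters. Among the windows not printed, Tnf had a TATA box at 29 bases, Il6 an NF-κB match at 44 bases and an AP-1 match at 249 bases, and Tgfb1 an NF-κB match at 140 bases. Of 32851 mouse windows of this length, 12.4% held the TATA box, 6.75% AP-1, 7.25% NF-κB and 1.55% the cyclic AMP element. A match describes letters and is not a measured site.

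The values are read counts divided by a size factor for each mouse, called normalized counts here. Between 33404096 and 77806399 reads per mouse were counted on genes, and mice of 1 group differed well beyond counting error (chi-square of at least 24.7 per gene for every pair). The ages were processed and normalized separately, so levels at 7 and 10 months are set side by side without a test. Thy1, whose promoter drives the transgene, was higher in HEM mice by 4.51 on the log2 scale at 7 months and by 6.37 at 10 months, and the genotypes did not overlap. All 12 microglial markers were above 10 normalized counts in every mouse. Neutrophil and monocyte markers were also present in every mouse, and their levels are given beside the results they move with. Because whole fractions were sequenced, fewer cells of a type and less RNA per cell cannot be told apart. Each library came from a different mouse, and the p-values measure the spread between these mice.

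At 10 months Il1b, Il1rn and Ptgs2 fell in HEM mice and Ptgs1 rose, and at 7 months no member passed the test. The test was limma's moderated test on log2(normalized count + 1), with p-values adjusted by the Benjamini-Hochberg method over all genes and called under 0.05. At 10 months 4 of 10 members were called, where 7.67% of all tested genes were called, and 3 were lower against 3.79% of all genes and 1 higher against 3.88%. Because the members were chosen with earlier results of these data known, these shares are a description. The groups of these 4 genes did not overlap, which held for 7.27% of all genes (3.49% with HEM lower, 3.78% with HEM higher). At 7 months 0 of 10 members were called, where 4.93% of all genes were called (2.23% higher, 2.7% lower). An unadjusted limma p under 0.05 was common among the 13887 genes tested. Of the members, Il1a and Ptgs2 had one, at ranks 960 and 2325 by p. No member was without overlap at 7 months, where 7.53% of all genes were (3.97% with HEM lower, 3.55% with HEM higher). DESeq2 called 1 member at 7 months, Il1a, where it called 8.16% of all genes, and the same 4 at 10 months, where it called 12.1%. It made more false calls than its nominal rate on simulated data. The median log2 fold change of the members was -0.02 at 7 months and -0.36 at 10 months, and that of all genes was 0.00 at both ages.

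**Figure D1:**
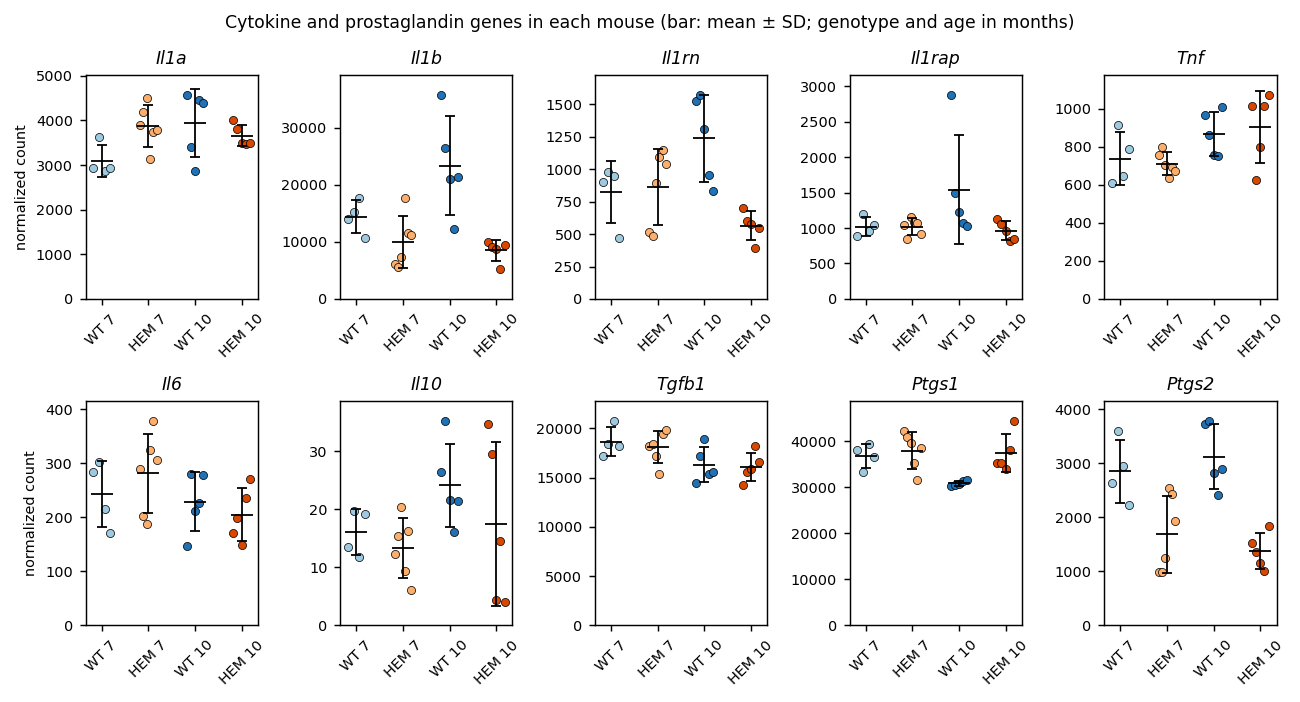
Normalized counts (vertical axes, from 0) of the 10 members in each of the 20 mice, by genotype and age in months; points are mice and bars are mean ± SD. At 10 months every HEM mouse lay below every WT mouse for Il1b, Il1rn and Ptgs2, and above every WT mouse for Ptgs1.

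Il1b (chromosome 2, 129364570 to 129371139, minus strand, mm10) encodes the secreted IL-1 ligand of activated myeloid cells. At 10 months its normalized counts in HEM mice were 9989, 9131, 8788, 5343 and 9482. In WT mice of that age they were 35795, 26530, 21044, 12209 and 21365. Every HEM mouse was below every WT mouse, and WT mice spread more widely (SD 8637 around a mean of 23389) than HEM mice (SD 1845 around 8547). Il1b thus fell by 1.40 on the log2 scale (SE 0.28, limma adjusted p = 0.0222), which is a 2.64-fold lower level. Leaving out WT replicate 2 gave an adjusted p of 0.0545 and leaving out WT replicate 5 one of 0.0511, whereas the other 8 omissions kept the call.

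At 7 months Il1b ranged from 5616 to 17742 in the 6 HEM mice with a median of 9273. The 4 WT mice had 14090, 15266, 17725 and 10685 normalized counts. The groups overlapped, with 3 HEM mice below every WT mouse and 1 above every WT mouse. The log2 fold change was -0.64 (SE 0.34, limma adjusted p = 0.321). The change of the genotype difference between the ages was -0.76 (SE 0.45, limma adjusted p = 0.349) and was not called.

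Il1rn (chromosome 2, 24336853 to 24351494, plus strand) encodes the IL-1 receptor antagonist. At 10 months HEM mice had 698, 602, 578, 393 and 544 normalized counts. WT mice had 1525, 1572, 1312, 956 and 828. All HEM mice were below all WT mice. Il1rn fell by 1.12 on the log2 scale (SE 0.20, limma adjusted p = 0.00785), a 2.17-fold lower level, and this call held without any single mouse.

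At 7 months Il1rn ranged from 485 to 1144 in HEM mice with a median of 969. WT mice had 901, 979.5, 944 and 470.4. In HEM mice 3 of 6 values were above every WT value, and WT replicate 4 was the lowest of all 10 mice (log2 fold change 0.04, SE 0.32, limma adjusted p = 0.961). The interaction, the genotype difference at 10 minus that at 7 months, was -1.16 for Il1rn (SE 0.40, limma adjusted p = 0.0913). No member was called for it, where 6.36% of all genes were called (3.74% higher, 2.62% lower). DESeq2 called the Il1rn interaction (adjusted p = 0.0332), where it called 8.99% of all genes, as did limma without HEM replicate 2 of 7 months (adjusted p = 0.0475).

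Both the ligand Il1b and the antagonist Il1rn fell at 10 months, and the ratio of their reads overlapped between genotypes. It lay between 13.6 and 17.4 in HEM mice and between 12.8 and 25.8 in WT mice. At 7 months it lay between 8.26 and 16.3 in HEM mice and between 15.6 and 22.7 in WT mice. The ratio of Il1b to Il1a reads at 10 months lay between 1.53 and 2.72 in HEM mice and between 2.74 and 7.83 in WT mice. These ratios compare read numbers, are not corrected for transcript length and are given as a description.

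Il1a (chromosome 2, 129299610 to 129309972, minus strand) lies 54597 bases from Il1b and encodes the cell-bound IL-1 ligand. It was not called at either age. At 7 months its normalized counts ranged from 3128 to 4497 in HEM mice with a median of 3836, and WT mice had 2935, 3633, 2872 and 2929.7. In HEM mice 5 of 6 values were above every WT value, yet the groups overlapped through HEM replicate 4 (3128) and WT replicate 2 (3633). The log2 fold change was 0.32 (SE 0.099, limma unadjusted p = 0.00517, adjusted p = 0.0748), so the difference was not called.

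The Il1a difference at 7 months lay close to the threshold. Its limma adjusted p was 0.0206 without HEM replicate 4 and 0.0439 without WT replicate 2, and DESeq2 gave 0.0411. At 10 months HEM mice had 4009, 3797, 3491, 3482 and 3492 normalized counts of Il1a, and WT mice 4569, 3398, 2876, 4457 and 4399. These groups overlapped (log2 fold change -0.09, SE 0.12, limma adjusted p = 0.701). The interaction was -0.41 (SE 0.16, limma adjusted p = 0.133) and reached an adjusted p of 0.0278 without WT replicate 3 of 10 months.

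Il1rap (chromosome 16, 26581704 to 26730117, plus strand) encodes the accessory chain shared by IL-1 family receptors. At 10 months HEM mice had 1128, 1056, 951, 823 and 848 normalized counts. WT mice had 2875, 1496, 1219, 1069.9 and 1029. The groups overlapped, and WT replicate 1 was far above the other WT mice. The log2 fold change was -0.57 (SE 0.26, limma adjusted p = 0.215), and -0.32 without that mouse (limma adjusted p = 0.160). At 7 months the means were 1018 ± 117 (SD, n = 6) in HEM and 1019 ± 132 (SD, n = 4) in WT mice.

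**Figure D2:**
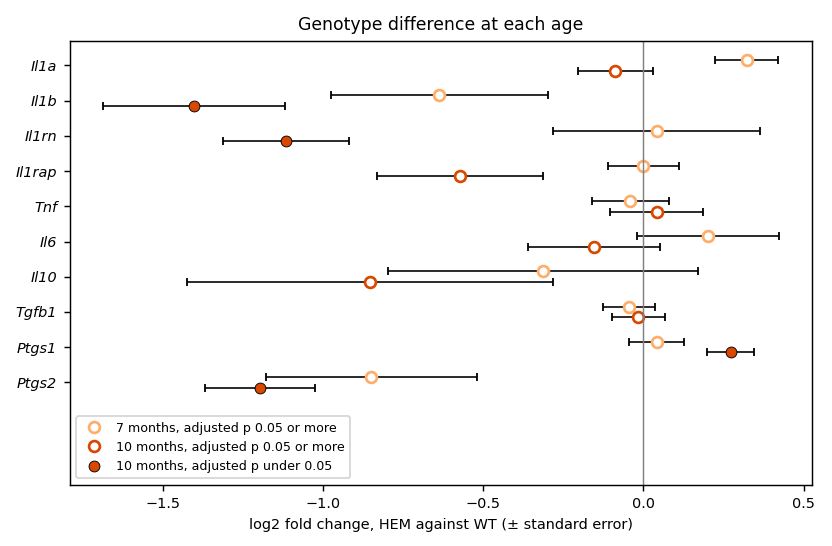
Log2 fold change of HEM against WT mice (horizontal axis, ± standard error of the limma fit) for the 10 members at 7 and 10 months; filled points passed an adjusted p of 0.05. The 4 filled points are Il1b, Il1rn and Ptgs2 to the left of 0 and Ptgs1 to the right, all at 10 months.

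Ptgs2 (chromosome 1, 150100031 to 150108227, plus strand) encodes COX-2 and had the smallest p of the members at 10 months. HEM mice had 1515, 1352, 1154, 997 and 1845 normalized counts. WT mice had 3724, 3775, 2819, 2410 and 2884. All HEM mice were below all WT mice. Ptgs2 fell by 1.20 on the log2 scale (SE 0.17, limma adjusted p = 0.00332), a 2.29-fold lower level, and held without any single mouse.

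At 7 months Ptgs2 ranged from 978 to 2542 in HEM mice with a median of 1582. WT mice had 2633, 3599, 2952 and 2219.9. In HEM mice 4 of 6 values were below every WT value, and the others reached into the WT range. The log2 fold change was -0.85 (SE 0.33, limma unadjusted p = 0.0306, adjusted p = 0.183). The difference between the ages was -0.35 (SE 0.38, limma adjusted p = 0.647), so the Ptgs2 effects at 7 and 10 months were not shown to differ.

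Ptgs1 (chromosome 2, 36230426 to 36252272, plus strand) encodes COX-1 and moved the opposite way. At 10 months HEM mice had 35354, 35382, 34083, 38068 and 44379.7 normalized counts. WT mice had 30233, 30588, 30668, 31364 and 31574. All HEM mice were above all WT mice, and the WT values lay within a narrow range (coefficient of variation 1.82% against 11.0% in HEM mice). Ptgs1 rose by 0.27 on the log2 scale (SE 0.072, limma adjusted p = 0.0360), a 1.21-fold higher level.

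This small rise of Ptgs1 depended on single mice. The adjusted p was 0.0508 without HEM replicate 1, 0.0516 without HEM replicate 4 and 0.0724 without HEM replicate 5. It was 0.0690, 0.0784, 0.0707 and 0.0597 without WT replicates 1, 2, 3 and 5. At 7 months Ptgs1 ranged from 31522 to 42183 in HEM mice with a median of 39104, and WT mice had 38048, 33374, 39357 and 36499.8. These groups overlapped (log2 fold change 0.04, SE 0.086, limma adjusted p = 0.819).

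Per kilobase of exon Ptgs1 was the highest of the members in 3 of the 4 groups and Il1b in WT mice at 10 months. Ptgs1 had 202 ± 21.0 RPKM (reads scaled to exon length and library depth; SD, n = 5) in HEM mice at 10 months and 167 ± 3.54 (SD, n = 5) in WT mice. Il1b had 94.0 ± 20.3 and 257 ± 93.2 RPKM in those groups. Ptgs2 had 6.28 ± 1.47 and 14.3 ± 2.75 RPKM. The ratio of Ptgs2 to Ptgs1 reads at 10 months lay between 0.0262 and 0.0429 in HEM mice and between 0.0768 and 0.123 in WT mice. At 7 months it lay between 0.0235 and 0.0771 in HEM mice and between 0.0608 and 0.108 in WT mice.

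Tnf (chromosome 17, 35199381 to 35202007, minus strand), the ligand of the TNF receptors, was not called at either age. At 10 months HEM mice had 1015, 623, 798, 1014 and 1073 normalized counts and WT mice 966, 861, 758, 749.97 and 1007. In HEM mice 3 of 5 values were above and 1 was below every WT value (log2 fold change 0.04, SE 0.14, limma adjusted p = 0.896). At 7 months the means were 711 ± 60.1 (SD, n = 6) in HEM and 738 ± 141 (SD, n = 4) in WT mice (log2 fold change -0.04, SE 0.12, limma adjusted p = 0.883).

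Il6 (chromosome 5, 30013114 to 30019981, plus strand), an inflammatory cytokine gene, lay between 148 and 378 normalized counts in HEM mice and between 147 and 303 in WT mice over both ages. Its log2 fold change was 0.20 at 7 months (SE 0.22, limma adjusted p = 0.637) and -0.16 at 10 months (SE 0.21, limma adjusted p = 0.701). Il10 (chromosome 1, 131019845 to 131024974, plus strand), the gene of an inhibitory cytokine, was the least abundant member. It lay between 4.01 and 35.2 normalized counts over all mice. At 10 months HEM mice had 34.7, 29.5, 4.28, 14.6 and 4.01 and WT mice 26.5, 35.2, 21.7, 16.1 and 21.4. The log2 fold change of -0.85 had an SE of 0.57 (limma adjusted p = 0.397), with a coefficient of variation of 81.4% among HEM mice.

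Tgfb1 (chromosome 7, 25687002 to 25705077, plus strand), the gene of TGF-β1, had a coefficient of variation between 7.97% and 10.9% in the 4 groups. Its mean was 18089 ± 1629 (SD, n = 6) in HEM and 18656 ± 1487 (SD, n = 4) in WT mice at 7 months. At 10 months it was 16109 ± 1439 (SD, n = 5) and 16306 ± 1781 (SD, n = 5). The log2 fold changes were -0.05 (SE 0.081, limma adjusted p = 0.783) and -0.02 (SE 0.084, limma adjusted p = 0.934).

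Genes of the opposite strand overlap 4 members, and it is not given in the sources used here whether counting used strand, so reads of the overlaps cannot be told apart. Gm14023 over Il1a had between 24.8 and 117 normalized counts, Il1bos over Il1b between 10.9 and 57.7, and Gm20319 over Il1rap between 0 and 1.38. Gm43621 overlaps Ptgs1. Il1a and Il1b were far more abundant than their overlapping partners.

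The 3 members that fell at 10 months also varied together from mouse to mouse. After centring on the group means, Pearson's r across the 20 mice was 0.88 for Il1b and Ptgs2, 0.81 for Il1b and Il1rn and 0.81 for Il1rn and Ptgs2. Il1a, 54597 bases from Il1b, had an r of -0.26 with it, and Tnf one of -0.13. The points share a library and its scaling, so these are descriptions without a test. The genes most like Il1b were Clec4d (r = 0.96), Bst1, Cd44, Gda and Cxcr2 (r = 0.94), out of 13483 genes compared over 20 mice. Within 10 months Clec4d and Cd44 were again among the 5 most alike, and within 7 months none of them was. Those most like Tnf were Egr2 (r = 0.82), Tagap, Tnfaip3, Egr1 and Atf3 (r = 0.72). Those most like Ptgs1 were Glt8d1 (r = 0.88), Man2b1, Slc46a3, Cyb561a3 and Zfyve21 (r = 0.84), and among those most like Tgfb1 were Laptm5 (r = 0.89), Tecr, Rpl14-ps1 and Ube2m (r = 0.84). Within single ages only Atf3 at 10 months recurred among the 5 most like Tnf and only Slc46a3 at 7 months among those most like Ptgs1, and none recurred for Tgfb1.

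**Figure D3:**
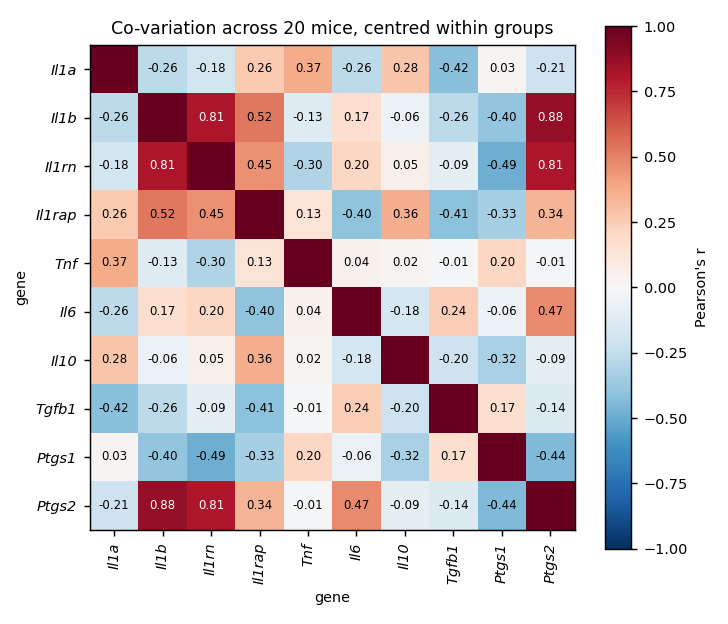
Pearson's r between the 10 members across 20 mice after centring log2 values on each group's mean; both axes list the genes. Il1b, Il1rn and Ptgs2 are the pairs with r from 0.81 to 0.88.

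Monocyte and neutrophil markers moved with Il1b, Il1rn and Ptgs2, as did a list of immediate-early and dissociation-response genes. Immediate-early genes are switched on soon after a stimulus, and dissociation-response genes when tissue is taken apart. The centred r of the summed monocyte markers was 0.81 with Il1b, 0.75 with Il1rn and 0.84 with Ptgs2, and that of the summed neutrophil markers was 0.70, 0.69 and 0.80. For the T and NK cell sum it was 0.53, 0.42 and 0.58, and for the B cell sum -0.05, -0.10 and -0.24. The sum of the 17 immediate-early and dissociation-response genes, called the immediate-early sum here, had an r of 0.70 with Il1b, 0.48 with Il1rn and 0.78 with Ptgs2. Within 10 months the r with Il1b was 0.81 for the immediate-early, 0.78 for the monocyte and 0.56 for the neutrophil sum, and with Ptgs2 it was 0.81, 0.66 and 0.57. With Il1rn it was 0.52, 0.59 and 0.43. The correlation of ranks (Spearman's rho) within 10 months was 0.77, 0.37 and 0.33 for Il1b, in the same order of sums. It was 0.79, 0.52 and 0.48 for Ptgs2 and 0.47, 0.30 and 0.27 for Il1rn. The immediate-early sums of the genotypes overlapped at 10 months (93561 to 114419 in HEM and 91714 to 140844 in WT mice), and 1 of 17 of these genes, Fosb, was lower in HEM mice. Ptgs1 had an r of 0.75 with the microglial sum (0.79 within 7 and 0.70 within 10 months). With the monocyte sum its r was -0.66 within 7 months and 0.05 within 10 months. The part of these cells and genes in the member results was not tested beyond the covariate fits given next. At 10 months the monocyte sum over 8 of 8 markers lay between 17093 and 29750 normalized counts in HEM mice and between 31860 and 61054 in WT mice, without overlap. Of these markers 4 of 8 were lower in HEM mice, among them Plac8, Chil3 and F13a1. The neutrophil sum over 11 of 12 markers lay between 101355 and 237846 in HEM mice and between 198217 and 452997 in WT mice, and Cxcr2, Retnlg and Csf3r were lower (3 of 11). The sum of T and NK cell markers, over 7 of 8 markers, also did not overlap at 10 months (199 to 329 in HEM and 431 to 860 in WT mice), and Cd3d, Nkg7 and Klrb1c were lower (3 of 4 tested). Of the listed markers with values, 0 were at 0 in every mouse, and markers without values were not counted. At 7 months 0 of 8 monocyte, 0 of 11 neutrophil and 1 of 4 T and NK cell markers (Klrb1c, lower) were called, and 4 of 10 neuronal, 3 of 8 astrocyte (with 1 higher), 3 of 8 oligodendrocyte and 2 of 8 endothelial markers were lower in HEM mice. The oligodendrocyte sums at 7 months (up to 10208 in HEM and from 12776 in WT mice) did not overlap, nor did the endothelial sums (up to 5195 and from 5598). At 10 months, among markers of border macrophages, 4 of 8 were lower, and 4 of 12 microglial markers were higher (Cx3cr1, Itgam, Sall1 and Siglech). The border macrophage sums of that age did not overlap either (27600 to 33172 in HEM and 34510 to 41363 in WT mice).

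With the summed neutrophil or monocyte markers as a covariate, an alternative chosen after seeing the data, 0 of 10 members were called at 10 months. Il1b then had a log2 fold change of -0.86 with the neutrophil sum (SE 0.37, limma adjusted p = 0.383) and of -0.27 with the monocyte sum (SE 0.34, limma adjusted p = 0.915). Il1rn had -0.80 (SE 0.28, limma adjusted p = 0.259) and -0.46 (SE 0.32, limma adjusted p = 0.807), and Ptgs2 -0.84 (SE 0.22, limma adjusted p = 0.133) and -0.57 (SE 0.26, limma adjusted p = 0.729). Ptgs1 stayed at 0.32 (SE 0.11, limma adjusted p = 0.266) and 0.29 (SE 0.15, limma adjusted p = 0.754). Over all genes 38 and 6 were then called, among them Thy1. Since the monocyte, the border macrophage and the T and NK cell sums of the genotypes did not overlap at 10 months, the genotype and these cells cannot be told apart.

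At 10 months the mice nearest in monocyte sum across genotypes, a single mouse of each, are set side by side as a description. They are the HEM mouse with the highest and the WT mouse with the lowest monocyte sum of that age. HEM replicate 5 at 10 months had a sum of 29750, 9482 normalized counts of Il1b, 544 of Il1rn and 1845 of Ptgs2. WT replicate 4 had a sum of 31860, 12209 of Il1b, 956 of Il1rn and 2410 of Ptgs2. At 7 months, where the monocyte sums overlapped (15511 to 47294 in HEM and 20032 to 45910 in WT mice), Ptgs2 was called with the neutrophil sum (log2 fold change -0.68, SE 0.15, limma adjusted p = 0.0199) and with the monocyte sum (-0.63, SE 0.13, limma adjusted p = 0.0128). Ptgs2 was 1 of 10 members, where 821 and 751 of 13887 genes were called with these sums. Il1b at 7 months was -0.48 (SE 0.20, limma adjusted p = 0.217) and -0.42 (SE 0.16, limma adjusted p = 0.178).

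**Figure D4:**
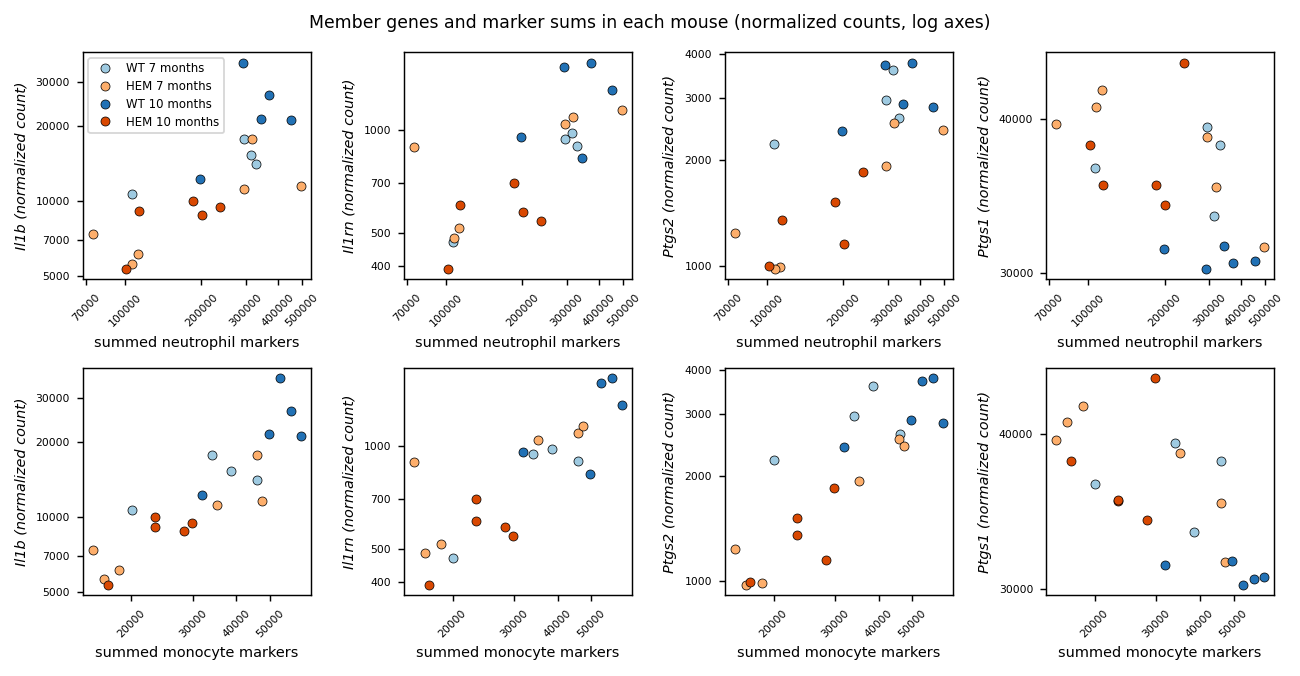
Normalized counts of Il1b, Il1rn, Ptgs2 and Ptgs1 (vertical, log axis) against the summed neutrophil (upper row) and monocyte markers (lower row; horizontal, log axis) in each of the 20 mice, by genotype and age. The centred r with the monocyte sum was 0.81 for Il1b, 0.75 for Il1rn and 0.84 for Ptgs2, and at 10 months the monocyte sums of HEM mice (up to 29750) and WT mice (from 31860) did not overlap.

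Other genes of these pathways were read from 10 lists of 116 genes, of which 105 were tested at 10 months. There 6 were higher and 14 lower (19% called, against 7.67% of all genes), with a median log2 fold change of -0.05. At 7 months 4 of 103 were higher and 3 lower (6.8%, against 4.93%), with a median of 0.05. The lists, like the members, were chosen with earlier results of these data known, so these shares are a description. Without any single mouse 4 of the 20 calls at 10 months and 0 of the 7 at 7 months were kept in every fit, and those kept were Il1r2, Il1rl2, Nrros and Furin. With the neutrophil or the monocyte sum as a covariate, 0 of the 20 were called at 10 months. Values with the sums are given below for some. The others kept their sign with either sum. They were 0.55 to 0.69 for Il1rl2, -0.72 to -0.69 for Panx1, 0.16 to 0.30 for Peli2 and 0.22 to 0.23 for Map3k7. For Tnfrsf1a they were -0.27 to -0.24, for Tnip1 -0.27 to -0.20, for Alox5ap -0.28 to -0.23 and for Il10rb -0.43. Nrros had -0.46 to -0.40, Lrrc32 -1.37 to -1.19, Ltbp3 0.47 to 0.54 and Furin 0.60 to 0.71.

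Among the 8 IL-1 family receptors, Il1r2, the decoy receptor that binds IL-1 without signalling, fell most at 10 months. Its mean was 250.5 normalized counts (175.5 to 338 across mice) in HEM and 902 (454 to 1127) in WT mice (log2 fold change -1.82, SE 0.25, limma adjusted p = 0.00297). With the neutrophil sum as a covariate the difference was -1.03 (limma adjusted p = 0.0847) and with the monocyte sum -0.61 (limma adjusted p = 0.731). Il18r1, a chain of the IL-18 receptor, was also lower (-0.83, SE 0.24, limma adjusted p = 0.0492, but 0.20 with the monocyte sum), whereas Il1rl2, the receptor of the IL-36 cytokines, was higher (0.63, SE 0.099, limma adjusted p = 0.00303). The signalling receptor gene Il1r1 was not called at 7 months (0.47, SE 0.16, limma adjusted p = 0.106) or at 10 months (-0.15, SE 0.14, limma adjusted p = 0.581). Of the other IL-1 family ligands 2 were tested and 0 called at either age.

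Of 10 genes of IL-1 maturation and release, the DNA sensor gene Aim2 was higher at 10 months (0.45, SE 0.10, limma adjusted p = 0.0210) and the channel gene Panx1 lower (-0.58, SE 0.16, limma adjusted p = 0.0427). Aim2 was 0.33 with the neutrophil and 0.11 with the monocyte sum. Casp1, encoding the protease that cleaves pro-IL-1β, was not called at either age but its interaction was (-0.39, SE 0.094, limma adjusted p = 0.0159). Of 13 signalling genes, the adaptor Myd88 (-0.34, limma adjusted p = 0.0420) and the inhibitory kinase Irak3 (-0.52, limma adjusted p = 0.0464) were lower at 10 months. With the monocyte sum Myd88 was -0.16 and Irak3 turned to 0.26. The ubiquitin ligase gene Peli2 (0.31, limma adjusted p = 0.0359) and the kinase gene Map3k7 (0.21, limma adjusted p = 0.0464) were higher. Among 16 genes of the TNF pathway, Adam17, the sheddase that releases TNF, was higher at 7 months (0.31, SE 0.068, limma adjusted p = 0.0148), and the receptor gene Tnfrsf1a (-0.30, limma adjusted p = 0.0301) and Tnip1 (-0.27, limma adjusted p = 0.0483) were lower at 10 months.

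No gene of prostanoid synthesis besides the 2 synthases was called at 10 months (0 of 11), and the phospholipase gene Pla2g15 was higher at 7 months (0.41, SE 0.10, limma adjusted p = 0.0307). Among prostanoid receptors, Ptger1 (-0.38, limma adjusted p = 0.0292) and Ptger3 (-0.83, limma adjusted p = 0.0394), both receptors of prostaglandin E2, were lower at 7 months, and Ptger2, another such receptor, was lower at 10 months (-1.16, SE 0.30, limma adjusted p = 0.0334). Ptger2 was low, with a mean of 32.9 normalized counts in HEM and 73.7 in WT mice, and its difference was -0.59 with the neutrophil and -0.35 with the monocyte sum. Alox5ap, which presents arachidonic acid to the leukotriene pathway, was lower at both ages (-0.40 and -0.29, limma adjusted p = 0.0236 and 0.0453), and Lta4h was lower at 10 months (-0.38, limma adjusted p = 0.0473, but 0.0051 and 0.13 with the neutrophil and monocyte sums).

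Of 10 tested genes of the IL-6 and IL-10 pathways, the receptor gene Il6ra was higher at 7 months (0.36, limma adjusted p = 0.0427), and Il10rb (-0.29, limma adjusted p = 0.0445) and the cytokine gene Osm (-0.99, limma adjusted p = 0.0462, but 0.089 with the monocyte sum) were lower at 10 months. Among 19 genes of the TGF-β pathway, the inhibitor Smad7 was higher at 7 months (0.29, limma adjusted p = 0.0448). At 10 months the anchors of latent TGF-β1 in microglia and other cells, Nrros (-0.43, SE 0.087, limma adjusted p = 0.010) and Lrrc32 (-1.17, SE 0.30, limma adjusted p = 0.0294), were lower. The latent binding protein gene Ltbp3 (0.68, SE 0.19, limma adjusted p = 0.0430) and Furin, a protease that matures TGF-β1 (0.54, SE 0.093, limma adjusted p = 0.00489), were higher.

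**Figure D5:**
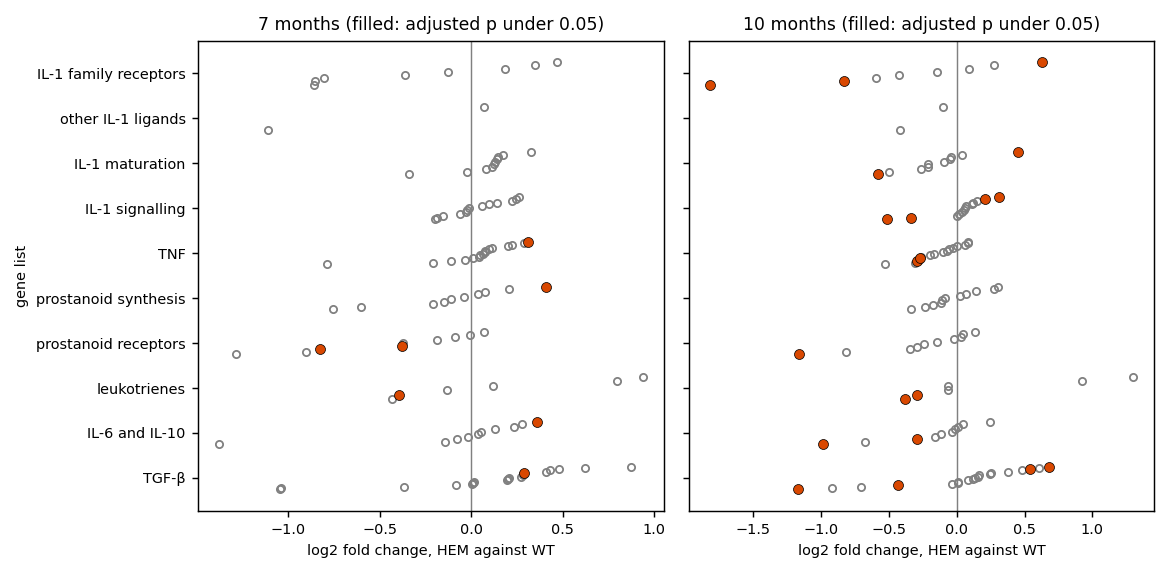
Log2 fold change of HEM against WT mice (horizontal axes) for the tested genes of 10 lists at 7 months (left) and 10 months (right); each point is a gene and filled points passed an adjusted p of 0.05. The filled points number 7 at 7 months and 20 at 10 months, of which 14 lie left of 0.

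The genes around each member were also read, within 2 Mb on either side. At 10 months 1 of 59 tested neighbors of Il1b was called and 1 of 10 of Ptgs2, where 7.70% of all genes with a position were called. For Il1rap 1 of 4 was called, and 8 of 42 (19%) within 5 Mb. Within 5 Mb the other members had between 3.87% and 7.84% of neighbors called at 10 months. For Il1rap at 7 months 2 of 43 (4.65%) were called within 5 Mb, where 5.06% of all genes with a position were called.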

How the data were processed

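Gene expression was measured by RNA-seq in 20 mice. The deposited values are a depth-scaled signal, called normalized counts here, for which the authors scaled reads per gene by size factors from DESeq2 at each age. The submitters' processing notes name Trim Galore 0.6.7, HISAT2 2.2.1, featureCounts, DESeq2 1.44.0 and mm10. The annotation and strand setting used in counting are not given in the sources used here. Whole reads were recovered for 100% of values within 0.01 reads. The main test was limma 3.58.1 with a mean-variance trend and robust variances on log2(normalized count + 1), for genes with at least 10 normalized counts in 4 mice (7 months and interaction) or 5 mice (10 months). Alternatives included edgeR 4.0.16 and DESeq2 1.42.0 on the recovered reads. The main fit, limma after TMM normalization, limma-voom, edgeR and DESeq2 were tested on simulated data for the genotype effect at each age. The interaction, the replicate block and the marker covariates were not tested in this way. Positions were taken from mm10 gene models, and RPKM from recovered reads and exon lengths. The members and lists were chosen with earlier results of these data known. The named genes were all 10 members, the called genes of the pathway lists, and the 5 genes most like Il1b, Tnf, Tgfb1 and Ptgs1. Some genes that these rules name are not reported here.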

Additional observations from a re-analysis of the deposited data

Results flagged for a closer look

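In 40 groups of members tested for a mouse far from the others, 4 were found, and chance gives about 1 in 20. They were Il1a in WT replicate 2 at 7 months (3633 normalized counts, the highest), Il1b in HEM replicate 4 at 10 months (5343, the lowest), Il1rn in WT replicate 4 at 7 months (470.4, the lowest) and Il1rap in WT replicate 1 at 10 months (2875, the highest). The genotype difference changed between the ages, by limma's interaction test, for 13 of 105 tested pathway genes (12.4%), where 6.36% of all genes were called. The change, 10 minus 7 months on the log2 scale, was above 0 for Il1rl2 (0.44, adjusted p = 0.0367), Irak1 (0.31, adjusted p = 0.0284), Peli2 (0.51, adjusted p = 0.00854) and Ski (0.32, adjusted p = 0.0438). It was below 0 for Casp1 (-0.39, adjusted p = 0.0159), Panx1 (-0.70, adjusted p = 0.0471), Adam17 (-0.34, adjusted p = 0.0243), Tnfrsf1a (-0.40, adjusted p = 0.0187) and Tnfrsf1b (-0.37, adjusted p = 0.0297). It was also below 0 for Pla2g15 (-0.58, adjusted p = 0.00743), Il6ra (-0.52, adjusted p = 0.0214), Il10rb (-0.53, adjusted p = 0.0157) and Nrros (-0.72, adjusted p = 0.00423). Of these, 6 were called without any single mouse (Casp1, Peli2, Tnfrsf1a, Pla2g15, Il10rb and Nrros). The ages were processed separately, so age and processing cannot be told apart.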

How the results depend on the processing

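Il1rn and Ptgs2 at 10 months kept their direction and call in every other normalization, filter, pseudocount and tool tried and without any single mouse, and Il1b in all but 2 omissions. With marker sums as covariates, chosen after seeing the data, 0 members were called at 10 months, 1 at 7 months with either sum (Ptgs2) and 1 for the interaction with the monocyte sum (Il1a). All genes called at 10 months then numbered 38 (neutrophil) and 6 (monocyte). At 7 months they numbered 821 and 751 of 13887, and for the interaction with the monocyte sum 1221 of 14457. DESeq2 called 1157 genes at 7 months (1 member), 1686 at 10 months and 1 member for the interaction, and made more false calls than its nominal rate on simulated data. Leaving out single mice gave 280 to 860 genes and 0 to 1 members at 7 months, 489 to 1232 genes and 2 to 4 members at 10 months, and 618 to 1097 genes and 0 to 1 members for the interaction. The counts of all genes fell most without WT replicate 1 at 7 months (280) and WT replicate 2 at 10 months (489).

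Replicate numbers did not pair the mice, with a mean correlation of -0.005 over 5 same-numbered pairs at 10 months and -0.036 over 4 at 7 months. With a replicate block 414 genes were called at 7 months and 482 for the interaction, the Ptgs1 call at 10 months was lost (adjusted p = 0.0547) and Il1rap was called (adjusted p = 0.0388).

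Some values changed sign, and the cause was not tested. None of the values with the changed sign was called. Of the main-fit values they replaced, only those of Il18r1, Irak3, Lta4h and Osm had been called, with the opposite sign. At 7 months Il1rn was -0.016 with limma-voom and -0.17 with the block, Il1rap 0.0075 with TMM, 0.0074 with edgeR, 0.00 with DESeq2 and 0.019 with the block, and Ptgs1 -0.0005 with the monocyte sum. Tgfb1 at 10 months was 0.030 and 0.038 with the neutrophil and monocyte sums, and its interaction -0.048 with limma-voom. The Ptgs2 interaction was 0.16 with the monocyte sum. With that sum Il18r1 was 0.20, Irak3 0.26, Lta4h 0.13 and Osm 0.089 at 10 months, and Lta4h was 0.0051 with the neutrophil sum. Leaving out single mice gave ranges across 0 at 7 months for Il1rn (-0.21 to 0.19), Il1rap (-0.066 to 0.077), Tnf (-0.13 to 0.069), Tgfb1 (-0.084 to 0.0056) and Ptgs1 (-0.0048 to 0.094), at 10 months for Tnf (-0.027 to 0.17) and Tgfb1 (-0.061 to 0.040), and for the interaction for Tnf (-0.027 to 0.21) and Tgfb1 (-0.021 to 0.087). Il10 rested on few reads per mouse, and whether depth limited its test was not examined.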
